A study of Homo sapiens with 6 samples.

Results

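Genes of the MHC class I antigen presentation pathway were followed through activation of p53 in RPE1 cells, an immortalised line of human retinal pigment epithelium. The members are 9 genes listed by name and role, a list drawn up with earlier results of these data known, out of the 57773 gene IDs in the deposited table. They are the heavy chains HLA-B, HLA-C and HLA-E, the light chain B2M, the peptide transporter and loading genes TAP1, TAP2 and TAPBP, and the immunoproteasome subunits PSMB8 and PSMB9. All 9 matched 1 gene ID each. RNA-seq covered 2 groups of 3 libraries, one exposed to 2.5 µM Nutlin-3 and the other to the vehicle DMSO, both over 24 h. Nutlin-3 binds MDM2, the ubiquitin ligase that holds p53 down. All libraries come from 1 cell line, with no genotype or other agent that differs between the groups, and the series asks which genes p53 controls in it. The labels do not say whether replicates were separate cultures, so the p-values reflect library-to-library scatter, possibly technical only.

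Class I molecules show fragments of a cell's own proteins to cytotoxic T cells. Proteasomes cut proteins into peptides, and the interferon-inducible subunits PSMB8 and PSMB9 replace standard catalytic subunits in the immunoproteasome. The TAP1 and TAP2 proteins pair to pump peptides into the endoplasmic reticulum, where TAPBP (tapasin) bridges the pump to heavy chains that have bound beta-2 microglobulin, the product of B2M. Epithelial cells make class I molecules at a resting level, and interferons raise it. TAP1 and the trimming peptidase gene ERAP1 have been described in other cells as p53-responsive.

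The library sizes behind the deposited values lay between 29.8 and 42.3 M, and the reads recovered from them between 28.5 and 41.2 M. Library size over recovered reads was 1.026 to 1.045 in the DMSO and 0.958 to 0.977 in the Nutlin-3 libraries, so the deposited scaling sets Nutlin-3 values higher than scaling to recovered reads would. As a check of the labels, the p53 target CDKN1A stood at 8.36 ± 0.463 RPKM in DMSO and 60.5 ± 2.34 RPKM in Nutlin-3 libraries (mean ± SD, n = 3). Of 16 class II and immune cell markers, 15 were under 0.5 RPKM on average and CD3E and NKG7 had no read in any library, which allows up to 3 reads each. The exception, the lysosomal protein gene CD68, rose from 20.9 ± 0.171 to 25.7 ± 1.36 RPKM (limma adjusted p = 2.78e-03), with no overlap between the groups. The summed level of the others was 0.487 to 0.584 RPKM in DMSO and 0.473 to 0.599 RPKM in Nutlin-3. Of 11 pigment epithelial and epithelial markers, 6 were under 0.5 RPKM. Among these, RPE65 and TYR, the visual cycle isomerase and tyrosinase genes, had at most 2 reads per library. MITF, also among the 6, rested on 1383 to 1905 reads per library and did not pass on recovered reads (limma voom adjusted p = 0.655). KRT8, KRT18 and CDH2 rose to 1.68, 1.74 and 1.28 times their DMSO levels, OTX2 fell to 81.9%, and VIM did not pass (limma adjusted p = 0.164). The part of these markers in the results was not tested. In bulk RNA, fewer cells of a type and less RNA per cell cannot be told apart.

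With Nutlin-3, the 3 heavy chain genes, TAP1 and TAPBP reached 1.303 to 1.404 times their DMSO levels, while B2M, TAP2 and PSMB8 did not pass the test and PSMB9 stood at 69.5% of its DMSO level. The values are RPKM, read counts scaled by gene length and library size, and the authors' kilobases count the whole gene with its introns. Genes averaging at least 0.5 RPKM were tested with limma on log2(RPKM + 0.5), and a call is a Benjamini-Hochberg adjusted p under 0.05 over 12212 genes. Of the 9 members, 8 entered that test, and 5 rose. Over all genes tested, 29.1% rose and 22.5% fell, or 51.6% in either direction. Of the calls over all genes, 56.4% were rises, against 37.8% when each library was scaled to its recovered reads, an alternative added after seeing the data. There the same 5 members rose, by 0.28 to 0.36, and TAP2 fell, where 2451 of all 12212 genes tested rose and 4027 fell. In the RPKM test with the deposited scaling no member fell, with 1 member, TAP2, lower at an unadjusted p under 0.05. limma voom on recovered reads tested all 9 members, with 5 called upwards and 2 downwards, against 25.6% and 23.9% of 20882 genes, or 49.5% in either direction. The median log2 fold change was 0.38 over the 8 members tested and 0.02 over all genes tested. Groups did not overlap for HLA-B, HLA-C, HLA-E, TAP1 and TAPBP upwards and for TAP2 and PSMB9 downwards. Over all genes tested, 34.4% did not overlap upwards and 61.8% did not in either direction.

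**Figure D1:**
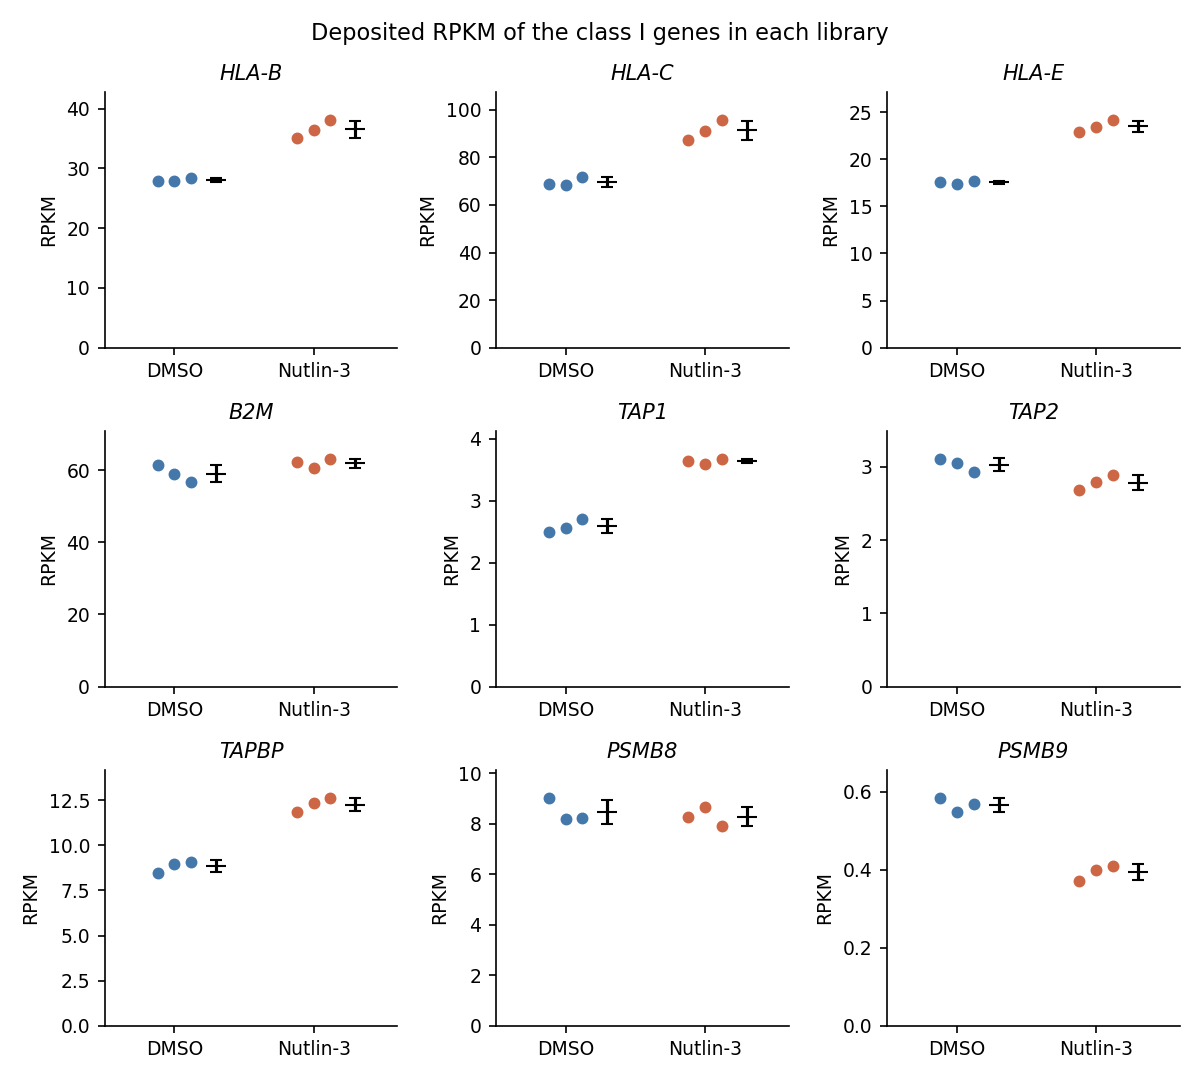
Deposited RPKM (vertical axes, linear from 0, a separate scale for each gene) of the 9 class I genes, with 1 point per library and bars for mean ± SD of 3 libraries. The Nutlin-3 points lie above all DMSO points for HLA-B, HLA-C, HLA-E, TAP1 and TAPBP, and below them for TAP2 and PSMB9, while the groups overlap for B2M and PSMB8.

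The heavy chains bind the peptide and face the T cell receptor. HLA-B (ENSG00000234745), a classical heavy chain, was read at 27.9, 27.9 and 28.3 RPKM in DMSO replicates 1 to 3 and at 35.1, 36.5 and 38.0 RPKM in Nutlin-3 replicates 1 to 3. HLA-C (ENSG00000204525), the other classical chain among the members and also a ligand of killer cell receptors, was read at 68.8, 68.3 and 71.9 RPKM in DMSO and at 87.3, 91.1 and 95.5 RPKM in Nutlin-3. HLA-E (ENSG00000204592), a nonclassical chain that presents leader peptides of other class I chains to natural killer cells, was read at 17.6, 17.3 and 17.7 RPKM in DMSO and at 22.9, 23.4 and 24.1 RPKM in Nutlin-3. Every Nutlin-3 library lay above every DMSO library for each of these 3 genes. The log2 fold changes were 0.37 (SE 0.036, limma adjusted p = 6.06e-04) for HLA-B, 0.39 (SE 0.043, limma adjusted p = 1.03e-03) for HLA-C and 0.41 (SE 0.029, limma adjusted p = 2.34e-04) for HLA-E. These correspond to 1.303, 1.31 and 1.34 times the mean DMSO level.

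The heavy chains are close relatives, which bears on how reads are placed. Of all words of 50 bases in the transcripts of GENCODE 29, 2.72% of those of HLA-B, 5.38% of those of HLA-C and 4.34% of those of HLA-E also occur in transcripts of other genes. How the authors placed such reads, and those from alleles that differ from the reference genome, is not given in the sources used here. Levels of single heavy chains are therefore uncertain, by an amount that these shares of reference transcripts do not give. HLA-B shares 17.8% of its exon bases with a gene on the opposite strand.

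The 3 heavy chains moved by much the same amount. The log2 ratio of HLA-B to HLA-C within a library was -1.297 ± 0.0269 in DMSO and -1.31 ± 0.00888 in Nutlin-3, a difference of -0.01 (exact permutation p = 0.5, 2-sided). That of HLA-C to HLA-E differed by -0.02 (exact permutation p = 0.5). Both differences are close to 0 and changed by more than 1.5 times when single libraries were left out, ranging from -0.03 to -0.003 for HLA-B to HLA-C and from -0.04 to -0.006 for HLA-C to HLA-E. The ratio of HLA-B to HLA-E differed by -0.04, with no overlap between the groups. Its exact permutation p of 0.1 is the lowest this design can reach (0.157 adjusted over 11 ratios, as for every other ratio below with p = 0.1). All 11 ratios were computed on log2(RPKM + 0.5), and no exact test of this size can pass the threshold of 0.05.

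B2M (ENSG00000166710) encodes the invariant light chain that every class I heavy chain needs to reach the surface. It was read at 61.3, 58.9 and 56.6 RPKM in DMSO and at 62.2, 60.5 and 62.9 RPKM in Nutlin-3, from 12994 to 19174 reads per library. DMSO replicate 1 lay inside the range of the Nutlin-3 libraries. The log2 fold change was 0.07 (SE 0.038, limma adjusted p = 0.179), with a 95% confidence interval from -0.03 to 0.16, or from -1.72% to 12.1%. Scaled to recovered reads, the change was -0.03 (adjusted p = 0.581). The first interval lies below those of all 3 heavy chains, of which the lowest lower bound is 0.28. The ratio of HLA-B to B2M rose in log2 terms from -1.06 ± 0.0681 to -0.75 ± 0.0538, a difference of 0.31 with no overlap between the groups (exact permutation p = 0.1, the smallest possible).

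The promoters of these genes are shown because the heavy chain genes rose while the light chain gene did not pass the test. RefSeq promoter windows on GRCh38.p14 were found for 8 of the 9 members, HLA-E being the exception, and the 250 bases before the transcript start are used here. Capitals mark matches on either strand to 6 motifs. These are the interferon-stimulated response element bound by IRF and STAT factors (GAAA, any 2 bases, GAAA), the gamma-activated sequence (TTCNNNGAA), the NF-Y box (CCAAT), the cAMP response element core (TGACG), the NF-kappaB consensus and the p53 decamer consensus. The windows of HLA-B (chr6:31357180-31357429, minus strand), HLA-C (chr6:31272093-31272342, minus strand) and B2M (chr15:44711267-44711516, plus strand) read as follows, 5′ to 3′ on the strand of the gene.
HLA-B: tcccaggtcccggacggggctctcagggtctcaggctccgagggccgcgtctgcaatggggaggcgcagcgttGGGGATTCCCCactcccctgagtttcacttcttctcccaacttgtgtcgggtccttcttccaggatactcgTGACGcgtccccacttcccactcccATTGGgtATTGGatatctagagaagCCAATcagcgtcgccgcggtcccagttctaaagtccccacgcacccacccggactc
HLA-C: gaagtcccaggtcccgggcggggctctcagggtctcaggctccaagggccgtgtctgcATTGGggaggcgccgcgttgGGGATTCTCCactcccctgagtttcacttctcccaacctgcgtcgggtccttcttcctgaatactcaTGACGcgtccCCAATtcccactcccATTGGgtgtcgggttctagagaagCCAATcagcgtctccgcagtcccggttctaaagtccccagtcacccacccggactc
B2M: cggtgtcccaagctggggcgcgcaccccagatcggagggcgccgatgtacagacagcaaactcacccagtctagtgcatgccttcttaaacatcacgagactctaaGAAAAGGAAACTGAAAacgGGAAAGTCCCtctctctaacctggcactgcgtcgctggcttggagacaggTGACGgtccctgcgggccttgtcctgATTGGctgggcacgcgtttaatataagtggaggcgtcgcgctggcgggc

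HLA-B and HLA-C, whose changes were alike, both hold an NF-kappaB match, a TGACG core and several NF-Y boxes. In HLA-B overlapping NF-kappaB matches run from 177 to 167 bases before the start, the TGACG core begins 106 bases before it and CCAAT, read on either strand, begins at 81, 74 and 56. In HLA-C the NF-kappaB match begins 172 bases before the start, the core at 105 and NF-Y boxes at 192, 95, 80 and 56. The B2M window also holds an NF-kappaB match, a core and an NF-Y box. Overlapping matches to the interferon-stimulated response element pattern run there from 144 to 129 bases before the start. The HLA-B and HLA-C windows hold no match to these exact letters, and forms of the element that differ from them were not searched for. A match to the NF-kappaB consensus was found in 5 of the 8 member windows and in 9.96% of 35116 promoter windows of the same length. The response element was found in 4 of 8 and in 3.02%, CCAAT in 5 of 8 and in 32.0%, and TGACG in 6 of 8 and in 21.2%. Neither the gamma-activated sequence (6.57% of all windows) nor the p53 decamer consensus (5.57%) occurred in a member window, which says only that these letters are not in these 250 bases. A match is a description of letters and not a bound site, and matches of short motifs can overlap others.

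Of the genes of peptide transport and loading, TAP1 and TAPBP rose and TAP2 did not pass. TAP1 (ENSG00000168394), one subunit of the pump, was read at 2.50, 2.56 and 2.71 RPKM in DMSO and at 3.64, 3.60 and 3.67 RPKM in Nutlin-3. TAPBP (ENSG00000231925), the bridging chaperone tapasin, was read at 8.47, 8.99 and 9.09 RPKM in DMSO and at 11.9, 12.3 and 12.6 RPKM in Nutlin-3. Every Nutlin-3 library lay above every DMSO library for both genes. TAP1 changed by 0.42 (SE 0.032, limma adjusted p = 3.06e-04) and reached 1.40 times its DMSO level, and TAPBP changed by 0.45 (SE 0.039, limma adjusted p = 4.55e-04) and reached 1.39 times its DMSO level. TAP1 rested on 670 to 1130 reads per library and TAPBP on 3937 to 6488.

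TAP2 (ENSG00000204267), the other subunit of the pump, was read at 3.10, 3.06 and 2.93 RPKM in DMSO and at 2.68, 2.79 and 2.88 RPKM in Nutlin-3. All Nutlin-3 values lay below all DMSO values, yet the gap between the nearest of them was small. The log2 fold change was -0.10 (SE 0.034), and the limma adjusted p of 0.05004 came out just above the threshold. It passed without DMSO replicate 3 (adjusted p = 0.0494) or Nutlin-3 replicate 3 (adjusted p = 0.0499), and with the replicate number as a block it was 0.139. Scaled to recovered reads, TAP2 fell by -0.19 (adjusted p = 4.42e-03). On recovered reads it fell, by -0.12 (limma voom adjusted p = 0.0252). GENCODE 29 places 32.3% of the exon bases of TAP2 inside another gene on the same strand, so its reads cannot be separated fully from that gene. The ratio of TAP1 to TAP2 moved from -0.19 ± 0.0873 to 0.33 ± 0.0416 on the log2 scale, a difference of 0.52 with no overlap between the groups (exact permutation p = 0.1, the smallest possible). In RPKM, TAP1 stood at 0.856 times TAP2 in DMSO and at 1.31 times TAP2 in Nutlin-3 libraries. These multiples depend on the spans of 8770 and 16948 bases that the RPKM divide by. Scaled to transcript length instead, TAP1 was below TAP2 in both groups.

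Among the immunoproteasome genes, PSMB8 (ENSG00000204264), the chymotrypsin-like subunit also called LMP7, was read at 9.01, 8.17 and 8.23 RPKM in DMSO and at 8.27, 8.66 and 7.92 RPKM in Nutlin-3. The groups overlapped, and the log2 fold change of -0.03 (limma adjusted p = 0.663) has a 95% confidence interval from -0.16 to 0.10, or from -10.4% to 7.12%. Scaled to recovered reads, the change of PSMB8 was -0.12 (adjusted p = 0.0918). PSMB9 (ENSG00000240065), the caspase-like position's replacement also called LMP2, was read at 0.583, 0.547 and 0.569 RPKM in DMSO and at 0.371, 0.399 and 0.411 RPKM in Nutlin-3. All Nutlin-3 libraries lay below all DMSO libraries. Its mean of 0.480 RPKM is under the minimum for the RPKM test, and rests on 181 to 381 reads per library over a span of 15450 bases. On those reads PSMB9 fell by -0.53 (SE 0.083, limma voom adjusted p = 3.35e-05), and without the minimum it fell by -0.26 on log2(RPKM + 0.5) (limma adjusted p = 4.39e-03), where 10.3% of 36363 genes fell.

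PSMB9 shares 5.66% of its exon bases with PSMB8-AS1, a noncoding gene on its own strand, and 4.52% with PSMB8 on the opposite one. PSMB8 shares 20.6% of its exon bases with PSMB8-AS1 and PSMB9, which lie opposite to it, and TAP1 shares 9.49% with PSMB8-AS1, also opposite. PSMB8-AS1, chosen here for this overlap, rested on 55 to 132 reads per library and fell from 1.35 ± 0.0933 to 0.800 ± 0.0926 RPKM (log2 fold change -0.51, limma adjusted p = 1.55e-03). Whether the authors counted by strand is not given in the sources used here, and the part of the shared bases in the values of TAP1, PSMB8 and PSMB9 was not tested.

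TAP1 and PSMB9 lie head to head and moved in opposite directions. Their RefSeq starts are 488 bases apart on opposite strands, and the window of TAP1 (chr6:32853705-32853954, minus strand) shares 13 bases at its upstream end with that of PSMB9 (chr6:32853942-32854191, plus strand). The TAP1 start used is the more upstream of 2 in the table. These windows are printed because this pair of neighbours showed the largest shift among the 11 ratios computed. TAPBP, which rose by 0.45 against 0.42 for TAP1, was not set against PSMB9, so the shift is not particular to neighbours.
TAP1: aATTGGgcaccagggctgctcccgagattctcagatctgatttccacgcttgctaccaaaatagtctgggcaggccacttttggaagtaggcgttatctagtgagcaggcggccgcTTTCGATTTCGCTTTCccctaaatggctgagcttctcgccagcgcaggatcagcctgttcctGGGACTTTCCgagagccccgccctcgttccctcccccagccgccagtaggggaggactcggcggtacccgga
PSMB9: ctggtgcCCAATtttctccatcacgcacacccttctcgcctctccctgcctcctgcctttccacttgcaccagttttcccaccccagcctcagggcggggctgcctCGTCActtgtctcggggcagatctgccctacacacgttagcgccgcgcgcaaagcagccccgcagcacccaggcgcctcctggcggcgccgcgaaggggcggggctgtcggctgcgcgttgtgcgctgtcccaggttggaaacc

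In the TAP1 window, overlapping interferon-stimulated response elements run from 134 to 119 bases before the start and an NF-kappaB match begins 72 bases before it. The PSMB9 window holds neither. Its matches are a CCAAT, in the bases shared with TAP1, and a TGACG core read on the other strand. The response elements and NF-kappaB match of TAP1 still lie upstream of PSMB9, in the 488 bases between the starts. The TAP2 window also holds the response element pattern, from 58 to 49 bases before the start. So do those of B2M and TAPBP. Of these genes TAPBP rose, while TAP2 and B2M did not pass the RPKM test. Whether any match bears on the changes was not tested. The log2 ratio of TAP1 to PSMB9 was 1.53 ± 0.0606 in DMSO and 2.21 ± 0.0345 in Nutlin-3, a difference of 0.68 with no overlap between the groups (exact permutation p = 0.1, the smallest possible). On recovered reads the same difference was 1.01, since the added 0.5 RPKM weighs on a gene as low as PSMB9. In RPKM, TAP1 stood at 4.57 times PSMB9 in DMSO and at 9.25 times in Nutlin-3. These multiples depend on the spans of 8770 and 15450 bases that the RPKM divide by. Scaled to transcript length instead, TAP1 was below PSMB9 in DMSO (7.68 against 11.2) and above it in Nutlin-3 (10.8 against 7.78).

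**Figure D2:**
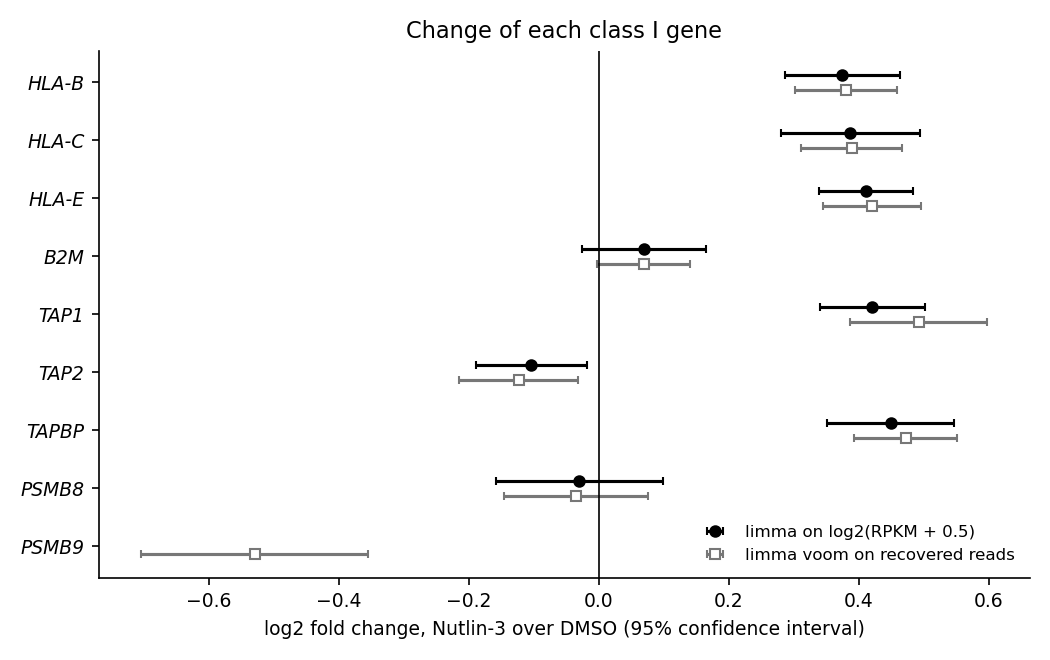
Log2 fold change of each class I gene (horizontal axis, Nutlin-3 over DMSO, bars for 95% confidence intervals) by limma on log2(RPKM + 0.5), filled, and by limma voom on recovered reads, open. HLA-B, HLA-C, HLA-E, TAP1 and TAPBP sit between 0.37 and 0.49 by either test, B2M and PSMB8 have intervals that include 0, and PSMB9, shown by voom alone, sits at -0.53.

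The immunosubunits were then set against the standard subunits that they replace. PSMB5, PSMB6 and PSMB7, the standard catalytic subunits, were read at 5.62 ± 0.183, 30.1 ± 1.04 and 1.69 ± 0.0401 RPKM in DMSO and at 5.91 ± 0.287, 31.7 ± 0.472 and 1.62 ± 0.0267 RPKM in Nutlin-3, and none passed (limma adjusted p = 0.265, 0.128 and 0.131). Without DMSO replicate 1, PSMB6 rose (log2 fold change 0.10, adjusted p = 0.0401). Scaled to recovered reads, PSMB7 fell (-0.13, adjusted p = 0.0105), and PSMB5 and PSMB6 had changes of -0.02 each. PSMB10, the third immunosubunit, was read at 5.23 ± 0.310 and 5.42 ± 0.545 RPKM and did not pass either (limma adjusted p = 0.679, and a change of -0.04 when scaled to recovered reads). The log2 ratio of PSMB9 to PSMB6 changed by -0.33 without overlap between the groups (exact permutation p = 0.1), that of PSMB8 to PSMB5 by -0.09 with overlap (exact permutation p = 0.2), and that of PSMB10 to PSMB7 by 0.10 with overlap (exact permutation p = 0.4). Leaving out 1 library moved the ratio of PSMB8 to PSMB5 to as little as -0.05 (without Nutlin-3 replicate 3). That of PSMB10 to PSMB7 ranged from 0.04 (without DMSO replicate 1) to 0.18 (without Nutlin-3 replicate 1), with 0.06 without Nutlin-3 replicate 2 and 0.05 without Nutlin-3 replicate 3. PSMB8 and PSMB9 also separated from each other, by 0.23 (exact permutation p = 0.1). On recovered reads, where no 0.5 RPKM is added, PSMB9 to PSMB6 changed by -0.60 and PSMB8 to PSMB9 by 0.49. The subunits PSME1 and PSME2 of the 11S activator were read at 27.05 ± 0.149 and 13.5 ± 0.106 RPKM in DMSO and at 28.9 ± 1.22 and 13.4 ± 0.449 RPKM in Nutlin-3. Their log2 ratio, PSME2 to PSME1, shifted by -0.10 without overlap (exact permutation p = 0.1), although neither gene passed alone (limma adjusted p = 0.864 for PSME2 and 0.083 for PSME1).

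**Figure D3:**
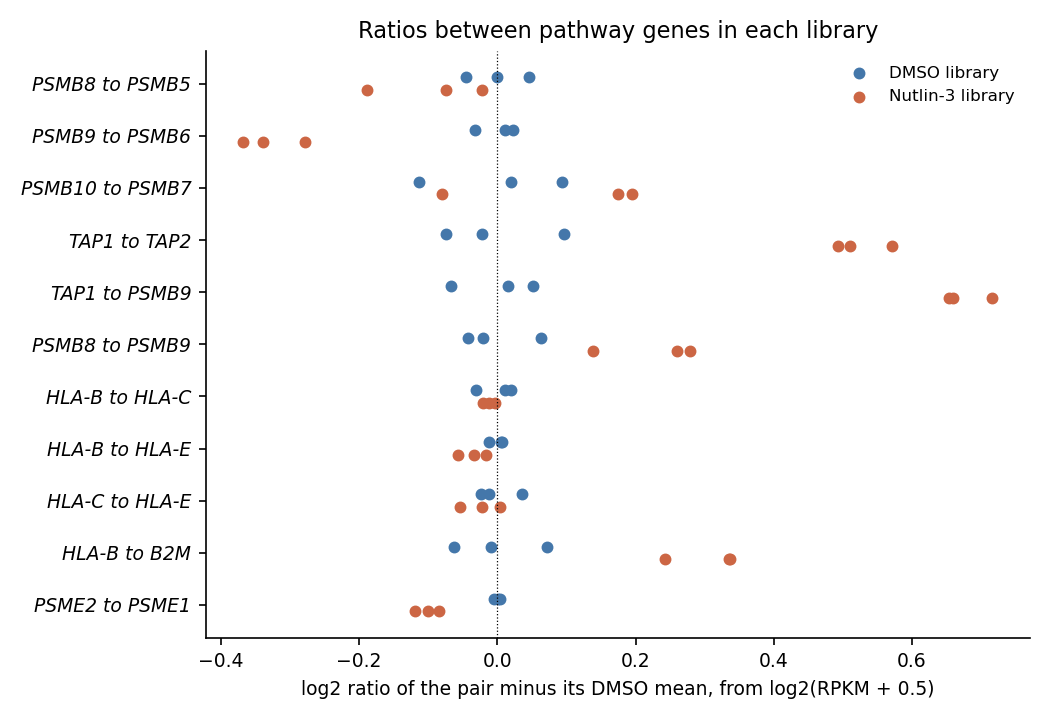
Log2 ratio of pairs of pathway genes in each library minus the DMSO mean of that ratio (horizontal axis), with 1 point per library. TAP1 to PSMB9 shows the widest gap at 0.68, followed by TAP1 to TAP2 at 0.52, while HLA-B to HLA-C differs by -0.01.

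Levels were compared between members as recovered reads scaled to library size, as in RPKM, and to the length in kilobases of the principal transcript of GENCODE 29, since the deposited RPKM divide by spans of 3317 to 16948 bases. In DMSO, B2M was highest at 255.8 ± 10.2, followed by HLA-C at 153.4 ± 4.31, TAPBP at 68.9 ± 2.57, HLA-B at 60.1 ± 0.555, HLA-E at 32.0 ± 0.318, PSMB8 at 30.0 ± 1.66, TAP2 at 20.6 ± 0.606, PSMB9 at 11.2 ± 0.358 and TAP1 at 7.68 ± 0.323. Neighbours in this order were separated in every library, except HLA-E and PSMB8, whose DMSO ranges overlapped. In Nutlin-3 the first 7 places were the same, and HLA-E at 42.8 ± 1.10 stood clear of PSMB8 at 29.4 ± 1.32. At the low end TAP1 at 10.8 ± 0.101 and PSMB9 at 7.78 ± 0.408 traded places. TAP1 remained below TAP2 (18.9 ± 0.674) on this scale, whereas the deposited RPKM put it above. The transcript chosen per gene sets these levels between genes and leaves the fold changes untouched.

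Around the members, 91 other genes of the pathway were read in 7 lists by role, and 67 entered the RPKM test. Of these, 27 rose and 11 fell, that is 40.3% and 16.4% against 29.1% and 22.5% over all genes tested. Scaled to recovered reads, 21 of the 67 rose and 18 fell, where 2451 rose and 4027 fell among all 12212 genes tested. The median log2 fold change of the 67 was 0.07.

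Among 11 genes of peptide loading and trimming, 9 were tested, 6 rose and none fell (none at an unadjusted p under 0.05, and none by voom, where 7 rose). CALR, the lectin chaperone calreticulin of the loading complex, rose from 185.1 ± 1.47 to 241.0 ± 3.07 RPKM (log2 fold change 0.38, limma adjusted p = 1.23e-04). PDIA3, the disulfide isomerase that pairs with tapasin, rose from 15.1 ± 0.328 to 18.8 ± 0.400 RPKM (0.31, limma adjusted p = 6.51e-04), and the general chaperone gene HSPA5 rose 1.23-fold. ERAP1, the aminopeptidase that trims peptides in the endoplasmic reticulum, rose slightly, from 1.504 ± 0.0351 to 1.63 ± 0.0184 RPKM (0.09, limma adjusted p = 0.0247). That call was lost with the replicate number as a block (adjusted p = 0.0730), under median-of-ratios scaling over the genes tested (adjusted p = 0.0902), under scaling to recovered reads (adjusted p = 0.616) and without any 1 library other than DMSO replicate 3 (adjusted p from 0.0582 to 0.0814). TAPBPL, the tapasin relative that edits peptides, averaged under 0.5 RPKM, at 0.193 ± 0.0106 in DMSO and 0.258 ± 0.00713 in Nutlin-3, and rose on recovered reads (0.41, limma voom adjusted p = 6.12e-03).

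Of 12 class I-like and stress ligand genes, 8 were tested, 5 rose and 1 fell. MR1, which presents vitamin metabolites to T cells, rose from 0.559 ± 0.0399 to 1.10 ± 0.0402 RPKM (log2 fold change 0.60, limma adjusted p = 1.62e-04). FCGRT, the neonatal Fc receptor chain that also pairs with beta-2 microglobulin, rose from 0.650 ± 0.00315 to 1.10 ± 0.0667 RPKM (0.48, limma adjusted p = 2.83e-04). Their mean RPKM were 1.98 and 1.70 times those in DMSO. The stress ligands MICA and MICB, seen by the receptor NKG2D, went apart, MICA rising 1.27-fold and MICB falling from 2.08 ± 0.116 to 1.81 ± 0.0261 RPKM (-0.16, limma adjusted p = 0.0172). The MICB call was lost with the replicate number as a block (adjusted p = 0.0573) and without DMSO replicate 2 or Nutlin-3 replicate 1 or 2 (adjusted p from 0.050005 to 0.0557).

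Of the 9 proteasome partner genes, 1 rose and none fell (none at an unadjusted p under 0.05, and none by voom), whereas 0 rose and 2 fell when scaled to recovered reads. The riser, PSME4, encodes the activator PA200 and went from 1.05 ± 0.0149 to 1.152 ± 0.0155 RPKM (log2 fold change 0.09, limma adjusted p = 0.0182). Its call was lost with the replicate number as a block (adjusted p = 0.0803), under median-of-ratios scaling over the genes tested (adjusted p = 0.0552), under scaling to recovered reads (adjusted p = 0.433) and without DMSO replicate 3 or Nutlin-3 replicate 1 or 3 (adjusted p from 0.0538 to 0.0641). Without DMSO replicate 1, 3 genes of this list rose. Of 6 cytosolic peptidases, none rose (1 at an unadjusted p under 0.05, and 1 by voom) and 2 fell. THOP1, thimet oligopeptidase, which destroys peptides in the cytosol, fell from 2.84 ± 0.0682 to 1.94 ± 0.0801 RPKM (-0.45, limma adjusted p = 2.71e-04), and BLMH, bleomycin hydrolase, stood at 87.2% of the DMSO mean (limma adjusted p = 0.0135). The BLMH call did not hold without Nutlin-3 replicate 2 (adjusted p = 0.0522).

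Of 25 transcription regulators of class I genes, 19 were tested, 8 rose and 7 fell. NLRC5, the class I transactivator, was read at 0.468 ± 0.00599 and 0.488 ± 0.0134 RPKM, under the minimum, and did not pass on recovered reads (log2 fold change 0.06, limma voom adjusted p = 0.251). Its DNA-bound partner RFX5 rose 1.305-fold (0.36, limma adjusted p = 2.41e-04), whereas RFXAP, of the same RFX complex, fell from 0.932 ± 0.0165 to 0.600 ± 0.0353 RPKM (-0.38, limma adjusted p = 3.99e-04). The interferon-response factor gene IRF1 did not pass (-0.02, limma adjusted p = 0.644, 95% confidence interval from -0.12 to 0.07) but fell when scaled to recovered reads (-0.11, adjusted p = 0.0428), while STAT2 and STAT3, which carry cytokine signals to the nucleus, rose 1.40- and 1.304-fold. EZH2 and SUZ12, subunits of the PRC2 complex that can silence class I genes, fell to 32.1% and 73.7% of their DMSO levels.

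Of 18 genes of interferon receptors and signalling, 10 were tested, 4 rose and 1 fell. The interferon genes IFNB1, IFNG and IFNL1 had no read in any library, which allows up to 3 reads in each. SOCS1, an interferon-induced inhibitor of JAK kinases, rose from 0.371 ± 0.0583 to 0.739 ± 0.196 RPKM on 19 to 50 reads per library (log2 fold change 0.50, limma adjusted p = 0.0205). Its call was lost without a filter (adjusted p = 0.0604) and without DMSO replicate 1 or 2 or Nutlin-3 replicate 2 (adjusted p from 0.0603 to 0.0664). Without Nutlin-3 replicate 2, 2 genes of this list rose. The sensor adaptor STING1 rose 1.28-fold and the kinase gene JAK1 1.20-fold, while TYK2, another JAK family kinase, fell to 85.3% of its DMSO level. Of 10 genes of class I turnover at the surface, 6 were tested, 3 rose and none fell (none at an unadjusted p under 0.05, and none by voom, where 6 rose), whereas 1 fell when scaled to recovered reads. TMEM127, part of a complex that sends class I molecules to degradation, rose 1.32-fold, and the ubiquitin ligases SYVN1 and MARCHF9 rose 1.22- and 1.23-fold. SUSD6, a partner of TMEM127 in that complex, averaged under 0.5 RPKM, at 0.163 ± 0.0111 and 0.247 ± 0.0111, and rose on recovered reads (0.62, limma voom adjusted p = 1.50e-07).

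**Figure D4:**
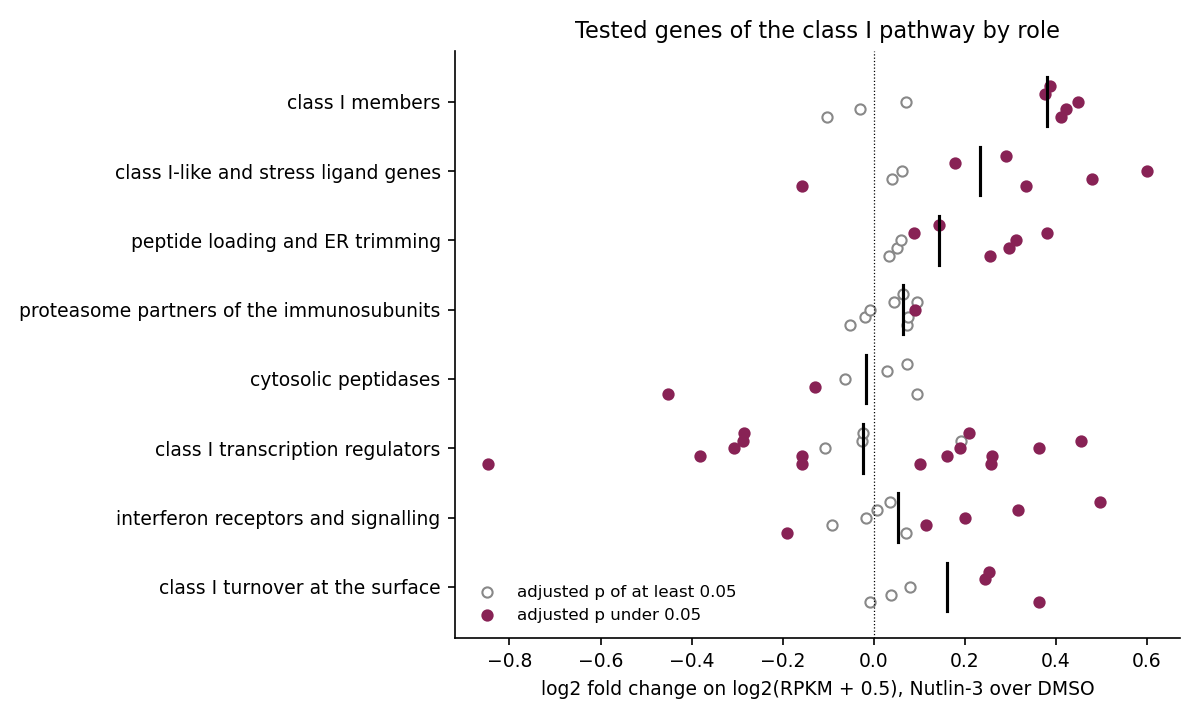
Log2 fold changes on log2(RPKM + 0.5) (horizontal axis) of the tested genes of the class I pathway, 1 point per gene and 1 row per list, with filled points past the adjusted threshold and a vertical bar at each list's median. The members have a median of 0.38, the proteasome partners lie between -0.05 and 0.09, and the transcription regulators spread to both sides, from -0.85 to 0.45.

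The genes most like the 3 members with the largest changes in the RPKM test were found by Pearson's r of log2(RPKM + 0.5) over the 6 libraries, among 8709 others averaging at least 1 RPKM. Nearest to TAPBP were SLC2A1 and SDF4, nearest to TAP1 were SORT1 and POLR3GL, and nearest to HLA-E were COPZ2 and SEC61A1, with r of at least 0.999 for each pair. The libraries fall into the 2 treatment groups, so r mostly restates the response to treatment, and 1573 genes had r above 0.95 with TAPBP, 1576 with TAP1 and 1776 with HLA-E.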

How the data were processed

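Per the labels' protocols, the TruSeq Stranded mRNA LT kit was used on polyadenylated RNA. CASAVA 1.8.2, TopHat2, edgeR and the build hg19 are named in the submitters' processing notes without roles, and for the counter, the annotation and the strand setting the sources used here give no name or value. The authors deposited RPKM, 1 column per library. With GENCODE 29 gene spans, 88.9% to 89.0% of low values (under 50 reads) were whole reads within 0.01 of a read, against 30.8% to 32.1% with exon lengths, so the RPKM divide by the whole gene. Reads were recovered from these steps. For HLA-B the length with whole reads in all 6 libraries was 3317 bases.

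The fit by limma 3.58.1 (R 4.3.3, trend, group only, checked on simulated data) took log2(RPKM + 0.5) of genes averaging 0.5 RPKM or more. The simulation took the library sizes as known and changed far fewer genes than were called here. It therefore does not bear on the choice of scaling. Ratios were tested by 2-sided exact permutation over libraries. limma voom took genes averaging 10 reads or more and the authors' library sizes. Alternatives were other pseudocounts, filters and scalings, no trend, a replicate block and leaving out each library. The named genes are the members, up to 3 rises and 3 falls per list and 12 others fixed by name, of which 1 is not reported here. The members and lists were chosen with earlier results of these data known. Levels between genes use the principal transcript, where merged exon length had been planned. Promoters are from RefSeq (GRCh38.p14), and no other coordinates are used, since the table is on hg19.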

Additional observations from a re-analysis of the deposited data

How the results depend on the processing

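The count of 5 members that rose was the same under every alternative, leave-one-out fits included, and the log2 fold changes of these 5 genes kept their direction and call. The count of members that fell was 0 in the RPKM test as run and 0 without a trend. With the deposited scaling it was 1 at a pseudocount of 0.1 or 1, without a filter and with a minimum mean of 1 RPKM. It was also 1 under median-of-ratios scaling (over all genes or, added after seeing the data, over the genes tested). Quantile normalization and scaling to recovered reads (also added then) gave 1 as well. The count was 2 by voom on recovered reads, and 0 to 1 when 1 library was left out. The gene was PSMB9 without a filter, TAP2 and PSMB9 by voom, and TAP2 otherwise (adjusted p from 0.00442 to 0.04999 where called). The 11 pathway genes that fell became 6 with a minimum mean of 1 RPKM, where fewer genes were tested, and 18 under scaling to recovered reads, which lowers Nutlin-3 values against DMSO. Without a call on either side, B2M turned to -0.033 and PSMB6 to -0.030 under quantile normalization, B2M to -0.026, PSMB5 to -0.024, PSMB6 to -0.023 and PSMB10 to -0.045 under scaling to recovered reads, PSMB8 ranged from -0.061 to 0.013 and IRF1 from -0.053 to 0.010 when 1 library was left out; the cause was not tested. Among the lists, a minimum mean of 1 RPKM lowered the rises from 5 to 2 for class I-like genes and from 4 to 2 for interferon signalling, and the falls from 7 to 3 for regulators and from 2 to 1 for peptidases. Turnover rises went from 3 to 5 without a filter and to 6 by voom, peptidase rises from 0 to 1 with a pseudocount of 0.1 and by voom, and proteasome partner falls from 0 to 1 under quantile normalization. Scaling to recovered reads moved proteasome partner rises from 1 to 0 and falls from 0 to 2, interferon signalling falls from 1 to 2 and turnover falls from 0 to 1. All 11 ratios kept their direction under the alternatives run for them, though not their size: PSMB8 to PSMB9 was 0.403 with a pseudocount of 0.1, 0.141 with 1 and 0.493 on recovered reads, and PSMB9 to PSMB6 was -0.507, -0.240 and -0.599. Same-numbered libraries did not deviate together (r = -0.025, 0.008 and 0.017), which does not show whether they were paired by design. With the replicate block 5 members rose, 0 fell and 5135 genes were called, against 6296 without it. Precision is limited by reads for PSMB9 (181 to 381 per library) and PSMB8-AS1 (55 to 132).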
